A study of Homo sapiens with 6 samples.

Results

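The genes of the leukemia inhibitory factor (LIF) receptor and of the JAK-STAT cascade behind it were followed in induced naive and parental primed human embryonic stem cells. They were chosen by name from the deposited count table: the cytokine LIF, the receptor chains LIFR, IL6R and IL6ST, the kinases JAK1, JAK2 and TYK2, the transcription factor STAT3 and the inhibitor SOCS3. All 9 were found among the 48183 gene names of the table, each under 1 identifier, and all 9 passed the filter on low counts in the 6 bulk RNA-seq libraries.

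Of the libraries, 4 were of naive cells and 2 of primed cells, and every one came from an embryonic stem cell line carrying the EOS-GFP reporter, which marks naive cells. The labels name the line H1-EOS, whereas the methods name H9. The AICAR cells (2 libraries, called AICAR 1 and AICAR 2) were induced for 14 days with 1 mM AICAR, an activator of the kinase AMPK, and expanded for 14 or 15 passages. Which of these libraries is which passage is not stated. After the 14 days the study describes a further week at a lower AICAR dose before AICAR was removed. The CA-p38 cells (1 library) carried a doxycycline-inducible, constitutively active p38 kinase in a piggyBac vector. They had been purified for the mCherry marker of that vector, then induced for 7 days and expanded for 12 passages. The study describes fewer days of doxycycline than these 7, and later culture without it. The VPA cells (1 library) were induced for 9 days with valproic acid, an inhibitor of histone deacetylases, in a medium with a MEK inhibitor and LIF, and expanded for 12 passages. Naive cells were expanded in PXGL, which holds inhibitors of MEK, tankyrase and protein kinase C and 10 ng/mL of human LIF. The labels give mouse embryonic fibroblast feeders for naive culture, but the study also moved CA-p38 cells to PXGL without feeders, and whether each sequenced library came from feeders is not stated. The naive cells were sorted as CD75+ and SUSD2+ before RNA extraction. The primed libraries were 1 of the EOS line, the parent of the AICAR and VPA cells, and 1 of the CA-p38 EOS line, the parent of the CA-p38 cells, both grown feeder-free on Matrigel in StemFit AK02N and not sorted. Naive state, medium with LIF and sorting thus go together, as do feeders where they were used, in these groups and cannot be told apart. Separate cultures behind the libraries are not stated, so p-values measure only the spread between these libraries, which among naive cells includes the induction methods. In bulk RNA, fewer cells that express a gene and less of its RNA per cell cannot be told apart either.

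LIF binds LIFR, which pairs with IL6ST (also called gp130), while IL6 first binds IL6R and then the same IL6ST. JAK1, JAK2 and TYK2 sit on the receptor tails and phosphorylate STAT3, which enters the nucleus and, among many targets, switches on SOCS3, an inhibitor that binds gp130 and its kinases and ends the signal. This route from LIF to STAT3 is known for holding mouse embryonic stem cells in the naive state, and LIF protein is part of the media for human naive cells. The LIF counts below are the cells' own transcripts, not the protein that was added.

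Total counts ran from 46823699 in AICAR 2 to 54277064 in AICAR 1, and a floor of 3 counts corresponded to 0.0553 to 0.0641 CPM, which are counts scaled by library size. The labels were checked against marker genes. The 6 naive markers (DPPA5, DPPA3, KLF17, SUSD2, TFCP2L1 and KLF4) summed to 1852 to 2153 CPM in naive and 7.66 to 9.88 CPM in primed libraries, and all 6 were higher in naive cells. SUSD2 was also used for the sort. The 5 primed markers (SFRP2, DUSP6, ZIC2, CD24 and THY1) summed to 30.9 to 42.5 CPM in naive and 2371 to 2903 CPM in primed libraries, and all 5 were lower in naive cells. The 8 fibroblast markers, read for feeder RNA that maps to human transcripts, summed to 117 to 158 CPM in naive and 392 to 408 CPM in primed libraries, and of these 5 were lower and none was higher in naive cells. LUM, a defining fibroblast gene, had 1.17 CPM in the CA-p38 library and at most 0.313 CPM in the others, and COL3A1 had 16.6 CPM in the CA-p38 library against 3.57 to 7.04 CPM in the other naive libraries. The 4 neural markers summed to 167 to 209 CPM in naive and 133 to 162 CPM in primed libraries, with TUBB3 higher and OTX2 lower in naive cells, and PAX6 had at most 1.29 CPM. The 4 endoderm markers summed to 8.97 to 14.8 and 9.37 to 29.7 CPM, with GATA4 higher (10.7 against 0.470 CPM in the means) and SOX17, FOXA2 and CXCR4 lower. The 4 trophoblast markers summed to 12.5 to 15.1 and 3.78 to 5.37 CPM, with GATA2 (4.93 against 0.225 CPM in the means) and KRT7 (7.21 against 3.41 CPM) higher and none lower, and CGA had at most 0.322 CPM. The part of these other cell types in the results below was not tested.

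Naive cells had more transcripts of IL6R, IL6ST, LIF, TYK2, SOCS3 and STAT3 than primed cells and fewer of LIFR. IL6R, the chain that binds IL6, was 31.7-fold higher in mean CPM and IL6ST, the shared signalling chain, 9.91-fold higher, whereas LIFR, the chain that binds LIF, was 2.93-fold higher in primed cells. Among the 9, naive levels were higher for 6 and lower for 1, and 2 did not pass an adjusted p of 0.05 (quasi-likelihood test of edgeR, Benjamini-Hochberg adjusted over all 26497 genes tested). Among all genes tested 53.1% passed, 26% higher and 27% lower in naive cells. With so many genes changed, the count of 7 of 9 is read only against that share. The naive and primed libraries did not overlap for 8 of the 9, compared with 64.9% of all genes tested. The median log2 fold change, naive over primed, was 1.32 over the 9 genes and 0.11 over all genes tested. The smallest two-sided p of an exact permutation test on 1 gene is 0.0667 with 4 and 2 libraries, and a model across all genes was used instead.

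**Figure D1:**
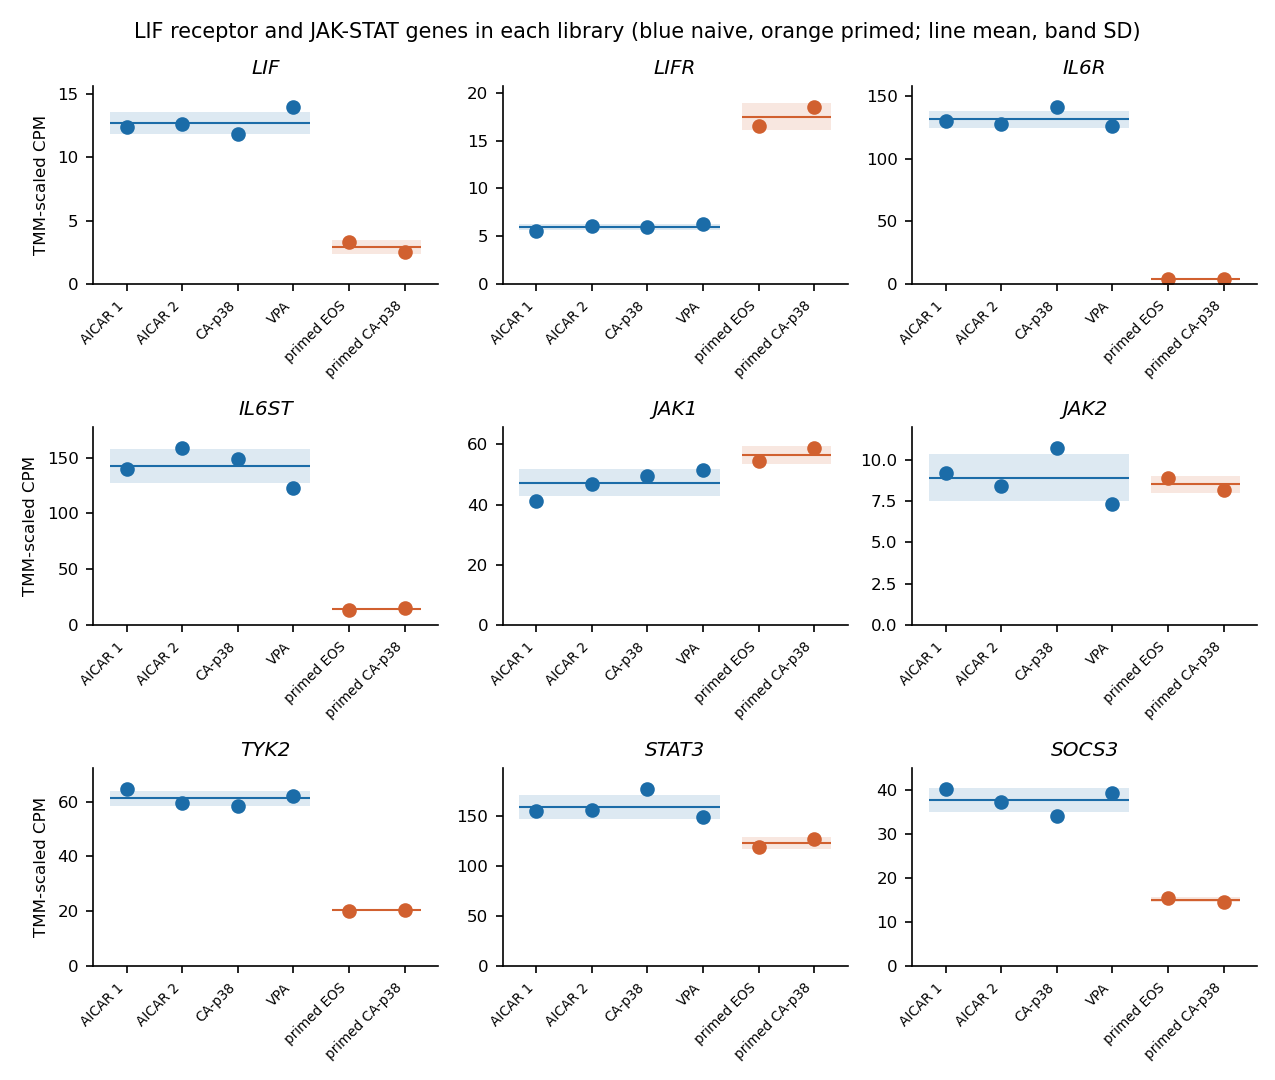
CPM scaled by TMM factors (vertical axis, from 0) of the 9 genes in each library, with naive libraries in blue and primed libraries in orange. Lines are group means and bands are SD. All 4 naive libraries lay above both primed libraries for LIF, IL6R, IL6ST, TYK2, STAT3 and SOCS3 and below them for LIFR and JAK1, and only JAK2 overlapped.

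LIF lies on chromosome 22 (30240453 to 30246759, minus strand, GRCh38) and has 3 exons. It had 13.96 CPM in the VPA, 11.9 CPM in the CA-p38, 12.4 CPM in the AICAR 1 and 12.6 CPM in the AICAR 2 library, against 3.29 CPM for primed EOS and 2.53 CPM for primed CA-p38 cells. All naive libraries lay above both primed libraries, and the naive libraries differed among themselves by at most 1.18-fold. The means were 12.7 ± 0.886 CPM (SD, n = 4) and 2.91 ± 0.536 CPM (SD, n = 2). On the log2 scale the change was 2.13 (SE 0.21, adjusted p = 2.74e-06 by edgeR's quasi-likelihood test). An antisense gene, LIF-AS1, overlaps 86 of its exon bases and had 0 to 32 counts per library. Use of the strand in counting is not stated, so reads from such overlaps cannot be told apart.

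LIFR lies on chromosome 5 (38474668 to 38608354, minus strand) and has 9 annotated transcripts. Among the RefSeq promoter windows, which run from 250 bases before to 50 bases after a transcript start (GRCh38.p14), 16 windows matched 8 of the 9 genes. The STAT motif TTCNNNGAA, which reads the same on both strands, was searched in them because STAT3 binds such letters. It stood in 2 of the 16 windows, while 7.66% of all 35116 windows held it. Both were among the 3 LIFR windows, and no window of the other matched genes held it. An excess over the share of all windows was not tested. LIF had no window. The windows of SOCS3 and of LIFR did not hold the first annotated base of their gene, so the sequence around it was not searched. Both LIFR stretches are shown because they are the only matches among these windows, with the motif in capitals. The first, chr5:38595542-38595590 on the minus strand, starts its motif 165 bases before a transcript start, and the second, chr5:38557621-38557669 on the minus strand, 182 bases before another.
LIFR first stretch: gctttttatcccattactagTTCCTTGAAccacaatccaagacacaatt
LIFR second stretch: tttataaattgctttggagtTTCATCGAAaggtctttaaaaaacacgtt
A match describes letters in these windows only. No factor binding was measured.

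LIFR was the only one of the 9 genes that passed the test with lower levels in naive cells. It had 6.30 CPM in the VPA, 5.93 CPM in the CA-p38, 5.55 CPM in the AICAR 1 and 6.12 CPM in the AICAR 2 library, against 16.5 CPM for primed EOS and 18.5 CPM for primed CA-p38 cells. Every naive library was below both primed libraries, and the naive libraries lay within 1.13-fold of each other. From primed to naive cells it fell by 1.55 on the log2 scale (SE 0.17, adjusted p = 6.15e-06 by edgeR's quasi-likelihood test), with means of 5.98 ± 0.319 CPM (SD, n = 4) and 17.5 ± 1.40 CPM (SD, n = 2). These values rest on 300 to 330 counts per naive library and on 818 and 905 counts in the primed libraries. LIFR-AS1, on the opposite strand, shares 629 exon bases with LIFR and had 24 to 39 counts in naive and 42 and 70 counts in primed libraries.

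IL6R lies on chromosome 1 (154405193 to 154469450, plus strand) and IL6ST on chromosome 5 (55935095 to 55995022, minus strand). They are the pair that binds IL6 and rose most among the 9 genes, so the stretches just before their first annotated bases are shown, taken from the same RefSeq windows and cut where the transcripts begin. Capitals mark GC boxes (GGGCGG or its complement CCGCCC) and CCAAT boxes (CCAAT or its complement ATTGG), searched on both strands. GC boxes stood in 44.95% and CCAAT boxes in 34.6% of all windows, which span 300 bases and are longer than the stretches shown. The IL6R stretch is chr1:154405093-154405192 on the plus strand and held none of these letters, and the IL6ST stretch is chr5:55995023-55995213 on the minus strand, with 3 GC boxes and 2 CCAAT boxes.
IL6R upstream: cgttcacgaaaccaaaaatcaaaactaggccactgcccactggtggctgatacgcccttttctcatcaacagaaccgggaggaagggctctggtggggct
IL6ST upstream: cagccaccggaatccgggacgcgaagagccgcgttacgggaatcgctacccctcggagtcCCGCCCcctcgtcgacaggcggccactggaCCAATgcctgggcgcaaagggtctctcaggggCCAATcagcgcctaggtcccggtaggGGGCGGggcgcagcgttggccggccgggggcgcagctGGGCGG

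IL6R had 127 CPM in the VPA, 141 CPM in the CA-p38, 130 CPM in the AICAR 1 and 128 CPM in the AICAR 2 library, against 4.38 CPM for primed EOS and 3.92 CPM for primed CA-p38 cells. The groups were far apart, with 6353 to 7146 counts per naive library and 217 and 192 counts in the primed libraries. This was a log2 fold change of 4.98 (SE 0.14, adjusted p = 3.74e-11 by edgeR's quasi-likelihood test). Of 12603 genes that averaged 5 CPM or more, 227 had a higher log2 fold change. Means were 132 ± 6.70 CPM (SD, n = 4) and 4.15 ± 0.325 CPM (SD, n = 2). IL6R-AS1 had 9 to 51 counts and the pseudogene IL6RP1 at most 5 counts in any library.

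IL6ST had 122 CPM in the VPA, 148 CPM in the CA-p38, 139.6 CPM in the AICAR 1 and 158 CPM in the AICAR 2 library, against 13.9 CPM for primed EOS and 14.8 CPM for primed CA-p38 cells. The lowest naive library, VPA, was still far above both primed libraries. The log2 fold change was 3.31 (SE 0.14, adjusted p = 1.10e-09 by edgeR's quasi-likelihood test), with means of 142 ± 15.3 CPM (SD, n = 4) and 14.3 ± 0.694 CPM (SD, n = 2). Its pseudogene IL6STP1 had at most 1 count per library. An antisense gene shares 797 exon bases with IL6ST and was not analysed here.

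Because LIFR fell while IL6ST and IL6R rose, the balance of the receptor chains differed between the states. Levels of different genes were compared as CPM per kb of the canonical transcript, and these ratios were added after the values had been seen, so they are descriptions without a test. IL6ST per kb was 22.7 times LIFR in the VPA library, 29.2 times in CA-p38, 29.4 times in AICAR 1 and 30.3 times in AICAR 2. In primed EOS and primed CA-p38 cells the ratio was 0.980 and 0.938, so the levels of both chains were nearly equal there. IL6R per kb was 36.8 to 43.6 times LIFR in naive libraries and 0.486 and 0.388 times LIFR in primed libraries. Between the chains that rose, IL6ST per kb was 0.617 to 0.791 times IL6R in naive libraries and 2.02 and 2.41 times IL6R in primed libraries. In naive cells the IL6-binding chain therefore stood above the shared chain in level per kb of these transcripts, and in primed cells below it. For LIFR, IL6R and IL6ST the canonical transcript is also the longest annotated. IL6ST has 25 annotated transcripts, and whether shorter lengths would change these ratios or their order was not tested.

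**Figure D2:**
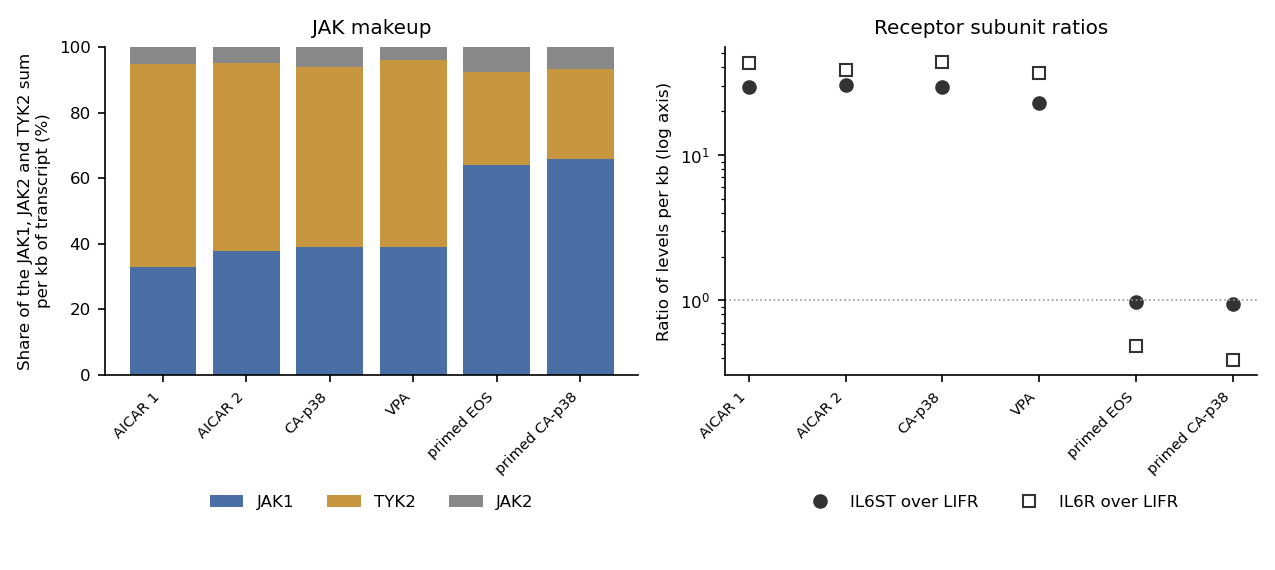
Left, share of each kinase (%) in the sum of JAK1, JAK2 and TYK2 levels per kb in every library. Right, ratios of IL6ST and of IL6R to LIFR levels per kb on a log axis, with a dotted line at equal levels. TYK2 held 55.0 to 61.8% of the kinase sum in naive and 27.5 and 28.5% in primed libraries, and both receptor ratios were above 20 in naive and below 1 in primed libraries.

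Among the kinases only TYK2 passed the test. TYK2 lies on chromosome 19 (10350533 to 10380608, minus strand) and works on several cytokine receptors beside gp130. It had 62.2 CPM in the VPA, 58.3 CPM in the CA-p38, 64.5 CPM in the AICAR 1 and 59.7 CPM in the AICAR 2 library, against 20.3 CPM for primed EOS and 20.4 CPM for primed CA-p38 cells. The primed libraries were nearly equal and all naive libraries were above them. The log2 fold change was 1.59 (SE 0.12, adjusted p = 1.97e-07 by edgeR's quasi-likelihood test), and the mean was 3.01-fold higher, at 61.2 ± 2.77 CPM (SD, n = 4) against 20.3 ± 0.126 CPM (SD, n = 2). The stretch before its first annotated base, chr19:10380609-10380822 on the minus strand, is shown for its run of 5 CCAAT boxes, in capitals.
TYK2 upstream: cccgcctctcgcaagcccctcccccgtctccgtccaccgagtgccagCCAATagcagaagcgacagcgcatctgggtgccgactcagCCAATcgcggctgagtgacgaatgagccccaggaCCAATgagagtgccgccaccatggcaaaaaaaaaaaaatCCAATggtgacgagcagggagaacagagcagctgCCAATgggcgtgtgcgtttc

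JAK1, on chromosome 1 (64833223 to 65067754, minus strand), is the kinase on which gp130 signalling mainly depends. It had 51.4 CPM in the VPA, 49.6 CPM in the CA-p38, 41.2 CPM in the AICAR 1 and 46.9 CPM in the AICAR 2 library, against 54.5 CPM for primed EOS and 58.7 CPM for primed CA-p38 cells. All naive libraries were below both primed libraries, but the gap between VPA and primed EOS was small and the difference did not pass the test, with a log2 fold change of -0.26 (95% interval -0.52 to 0.00, adjusted p = 0.0910 by edgeR's quasi-likelihood test). Means were 47.3 ± 4.45 CPM (SD, n = 4) and 56.6 ± 3.01 CPM (SD, n = 2). LINC01359 shares 647 exon bases with JAK1 on the same strand and had 21 to 68 counts, against 2240 to 2874 counts for JAK1.

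JAK2, on chromosome 9 (4984390 to 5129948, plus strand), a kinase best known from the receptors of erythropoietin and growth hormone, was the gene whose groups overlapped. It had 7.33 CPM in the VPA, 10.7 CPM in the CA-p38, 9.20 CPM in the AICAR 1 and 8.39 CPM in the AICAR 2 library, against 8.87 CPM for primed EOS and 8.13 CPM for primed CA-p38 cells. The log2 fold change was 0.07 (95% interval -0.38 to 0.51, adjusted p = 0.806 by edgeR's quasi-likelihood test), and the direction turned to -0.051 without the CA-p38 library. The naive libraries spanned 1.46-fold, the widest naive span among the 9 genes, where the median span over genes averaging 5 CPM or more was 1.27-fold.

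The share of each kinase in their summed level per kb was also computed after the values had been seen. TYK2 made up 57.8% ± 2.90 (SD, n = 4) of the sum of JAK1, JAK2 and TYK2 in naive and 28.02% ± 0.723 (SD, n = 2) in primed libraries. JAK1 made up 37.2% ± 2.93 and 64.9% ± 1.38, and JAK2 made up 5.08% ± 0.851 and 7.08% ± 0.658. JAK1 thus led among the kinases in both primed libraries and TYK2 in all 4 naive libraries. With the longest transcripts as lengths, TYK2 made up 59.4% in naive and 29.6% in primed libraries, so the order did not depend on that choice. The sum itself was 24.96 ± 0.592 CPM per kb (SD, n = 4) in naive and 17.1 ± 0.548 CPM per kb (SD, n = 2) in primed libraries.

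STAT3, on chromosome 17 (42313324 to 42388540, minus strand), was the most abundant of the 9 genes per kb in both states and changed least among those that passed. It had 149 CPM in the VPA, 177 CPM in the CA-p38, 154 CPM in the AICAR 1 and 155 CPM in the AICAR 2 library, against 118 CPM for primed EOS and 127 CPM for primed CA-p38 cells. All naive libraries were higher, 1.29-fold in the means of 159 ± 12.1 CPM (SD, n = 4) and 123 ± 6.25 CPM (SD, n = 2). The log2 fold change was 0.37 (SE 0.11, adjusted p = 0.00970 by edgeR's quasi-likelihood test). Without the primed EOS library it was 0.31 and did not pass, in a fit that left 1 primed library. Over the 15 alternatives its adjusted p ran from 0.00166 to 0.0946. STAT3 protein and its phosphorylation were not measured in these files.

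SOCS3, on chromosome 17 (78356778 to 78360077, minus strand), a transcriptional target of STAT3 and its feedback inhibitor, rose more than STAT3 itself. It had 39.3 CPM in the VPA, 34.0 CPM in the CA-p38, 40.1 CPM in the AICAR 1 and 37.1 CPM in the AICAR 2 library, against 15.5 CPM for primed EOS and 14.6 CPM for primed CA-p38 cells. The groups did not overlap, and the means of 37.6 ± 2.74 CPM (SD, n = 4) and 15.02 ± 0.608 CPM (SD, n = 2) stood 2.50-fold apart. On the log2 scale this was 1.32 (SE 0.14, adjusted p = 3.45e-06 by edgeR's quasi-likelihood test).

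Ordered by level per kb in naive cells, STAT3 came first with 32.3 ± 2.45 CPM per kb (SD, n = 4), followed by IL6R with 22.8 ± 1.16 and IL6ST with 15.8 ± 1.69. TYK2 followed with 14.4 ± 0.652, SOCS3 with 13.8 ± 1.001 and JAK1 with 9.28 ± 0.873 CPM per kb. LIF had 3.29 ± 0.229, JAK2 1.27 ± 0.201 and LIFR, the last, 0.566 ± 0.0302 CPM per kb. The libraries of IL6ST and TYK2 overlapped in this order, as did those of TYK2 and SOCS3, and all other neighbours were apart. In primed cells the order was STAT3 with 24.96 ± 1.27 CPM per kb (SD, n = 2), JAK1 with 11.1 ± 0.592, SOCS3 with 5.49 ± 0.222, TYK2 with 4.80 ± 0.0297 and LIFR with 1.66 ± 0.132. IL6ST with 1.59 ± 0.0769, JAK2 with 1.21 ± 0.0738, LIF with 0.753 ± 0.138 and IL6R with 0.721 ± 0.0563 CPM per kb came last. There LIFR overlapped IL6ST, and LIF overlapped IL6R. IL6R moved from the last place in primed to the second in naive cells, and LIFR from the fifth to the last.

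**Figure D3:**
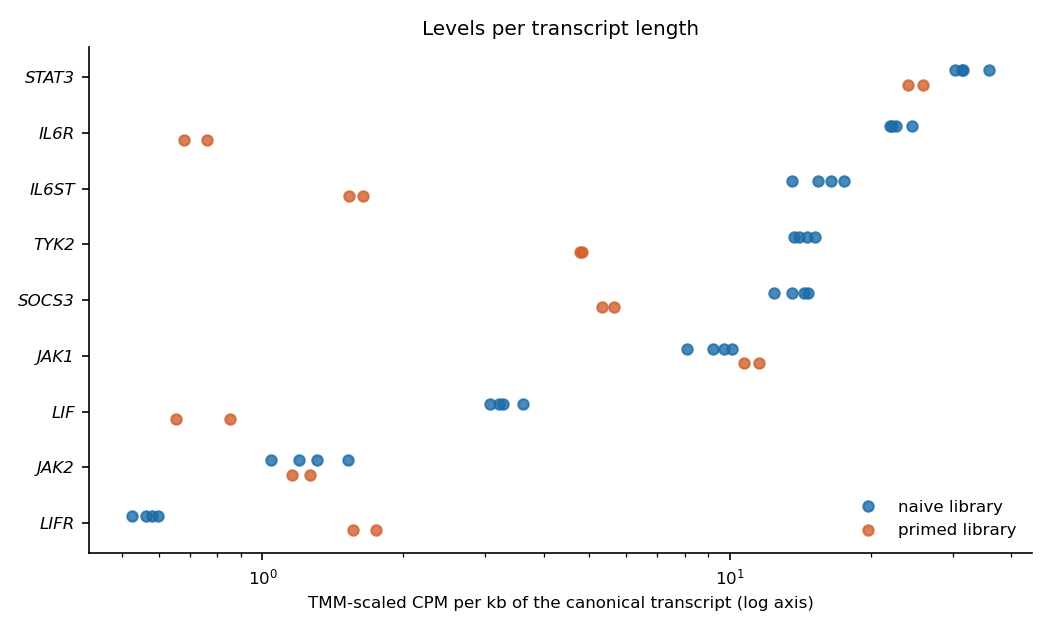
CPM per kb of the canonical transcript on a log axis for the 9 genes, sorted by the naive mean, with 1 point per library (blue naive, orange primed). STAT3 was highest in both states, and IL6R moved from 0.681 and 0.760 in primed libraries to 22.0 to 24.5 in naive libraries.

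The induction methods were set side by side by dividing each naive library by the primed library of its own line. With 1 primed library per line the fold of a single library was given without a test, and the 95% binomial intervals (Clopper-Pearson) cover counting error only. IL6R was 28.9-fold (25.3 to 33.3) higher in VPA cells, 35.9-fold (31.2 to 41.8) in CA-p38 cells, 29.7-fold (25.98 to 34.2) in AICAR 1 and 29.1-fold (25.5 to 33.6) in AICAR 2. IL6ST was between 8.83-fold (VPA) and 11.4-fold (AICAR 2) higher. LIF was 4.23-fold, 4.67-fold, 3.76-fold and 3.83-fold higher in VPA, CA-p38, AICAR 1 and AICAR 2 cells. Thus the naive libraries of every method lay above their primed library by folds of the same order for these genes. VPA, AICAR 1 and AICAR 2 were divided by the same primed EOS library, so their folds are not independent. TYK2 was 2.85-fold to 3.19-fold, SOCS3 2.33-fold to 2.59-fold and STAT3 1.26-fold to 1.39-fold higher over the 4 naive libraries. LIFR stood at 0.382 times its parent in VPA, 0.321 times in CA-p38, 0.337 times in AICAR 1 and 0.371 times in AICAR 2 cells. JAK1 stood at 0.944 times (0.894 to 0.996) its parent in VPA and 0.756 times (0.715 to 0.8003) in AICAR 1 cells, with the others between. JAK2 was the gene whose direction differed between naive libraries, also between those of AICAR. It stood at 0.827 times (0.719 to 0.951) its parent in VPA and 1.31 times (1.152 to 1.499) in CA-p38 cells. AICAR 1 stood at 1.04 times (0.911 to 1.18) and AICAR 2 at 0.946 times (0.826 to 1.08), with intervals that held 1. The AICAR libraries were close to each other, within 1.14-fold for all 9 genes.

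**Figure D4:**
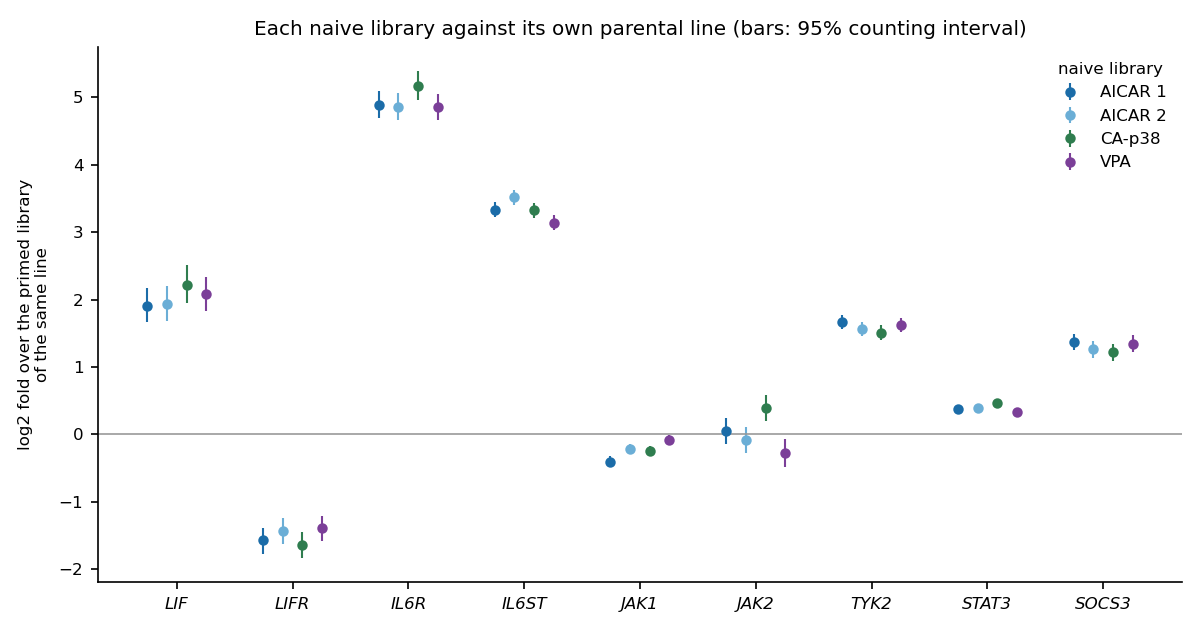
Log2 fold of each naive library over the primed library of its own line for the 9 genes, colored by library, with 95% counting intervals as bars. The 4 libraries lay on the same side of 0 for every gene but JAK2.

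Whether the change from primed to naive differed between the EOS and the CA-p38 EOS lines was tested as an interaction in edgeR. The only naive library of the CA-p38 EOS line was induced by CA-p38, and those of the EOS line by AICAR or VPA. Line and induction method therefore cannot be told apart in this test. Over all genes only H19, an imprinted noncoding RNA named after its value was seen, passed an adjusted p of 0.05, which is 1 of 26497 or 0.00377%, and 853 genes had an unadjusted p below 0.05. None of the 9 genes was among either. The lowest unadjusted p of the 9 was 0.240 (edgeR), for IL6R, whose rise was 0.30 log2 larger in the CA-p38 EOS line (SE 0.24). The largest difference in size was that of JAK2, at 0.49 log2 (SE 0.44). The interaction fit had 2 residual degrees of freedom, which come only from the naive libraries of the EOS line, both AICAR and VPA. A p above the threshold does not show that the lines changed alike.

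To place the 9 genes in their pathway, 50 other genes were counted by role, of which 48 were tested. Of these, 21 were higher in naive cells, 12 lower and 15 did not pass. Over all genes tested 53.1% passed, 26% higher and 27% lower. This count and the counts by role below are read only against that share. Their median log2 fold change was 0.18, against 0.11 over all genes tested. Among 8 cytokines of the family 6 were tested, and 2 of them were higher, none was lower and 4 did not pass (median -0.35). IL6, the ligand of IL6R, had 3.07 CPM in the VPA, 2.59 CPM in the CA-p38, 3.33 CPM in the AICAR 1 and 3.82 CPM in the AICAR 2 library, against 1 and 2 counts in the primed libraries. Its counts of 663 over the naive and 3 over the primed libraries gave a ratio of 105 (95% interval 35.8 to 511, counting error only, adjusted p = 3.08e-07 by edgeR's quasi-likelihood test). The other cytokine that was higher, IL11, named after its values were seen, had 4.105 ± 1.43 CPM (SD, n = 4) and 1.13 ± 0.00498 CPM (SD, n = 2). OSM had 0 counts in all 6 libraries, which allows up to 3 counts, or 0.0553 to 0.0641 CPM.

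Of 6 other receptor genes of the family 2 were higher, 2 were lower and 2 did not pass (median log2 fold change -0.15). OSMR, which pairs with IL6ST to bind oncostatin M, had 28.6 to 38.1 CPM in naive libraries and 7.49 and 4.95 CPM in the primed ones (log2 fold change 2.38, SE 0.20, adjusted p = 6.04e-07 by edgeR's quasi-likelihood test). IL31RA, named after its values were seen, was higher at under 2 CPM in every library. IL27RA, a partner of IL6ST for IL27, fell by 1.77 on the log2 scale (SE 0.21), from 20.3 ± 2.26 CPM (SD, n = 2) in primed to 5.96 ± 1.37 CPM (SD, n = 4) in naive libraries. IL11RA and CNTFR did not pass, with log2 fold changes of -0.45 (SE 0.30) and 0.15 (SE 0.26). So LIFR was not the only receptor chain of the family at a lower level in naive cells, nor were IL6R and IL6ST the only ones at a higher level.

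JAK3, the remaining JAK, had at most 4.71 CPM in any library and did not pass (log2 fold change -0.53, SE 0.35). Of 6 other STAT genes 1 was higher, 2 were lower and 3 did not pass (median log2 fold change 0.17). STAT5B, which carries signals of growth hormone among others, fell by 1.60 on the log2 scale (SE 0.12, adjusted p = 2.56e-07 by edgeR's quasi-likelihood test), from 68.7 ± 1.91 CPM (SD, n = 2) to 22.7 ± 2.34 CPM (SD, n = 4). STAT5A, its near-identical neighbour, did not pass, at 0.31 (SE 0.22), and since the counting could split reads between these paralogs, their values are uncertain. STAT2 rose by 0.70 (SE 0.14). STAT3 was thus higher in naive cells while STAT5B was lower.

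Of 7 other SOCS family genes 2 were higher, 2 were lower and 3 did not pass (median log2 fold change 0.02). SOCS4 had 67.3 to 89.8 CPM in naive libraries and 27.3 and 30.9 CPM in primed libraries, with a log2 fold change of 1.38 (SE 0.15), and SOCS5 rose by 0.43 (SE 0.14). SOCS7 fell by 1.27 on the log2 scale (SE 0.14), and SOCS6 fell by 0.73 (SE 0.17). SOCS1, SOCS2 and CISH, which are induced by STAT factors as SOCS3 is, did not pass, at 0.02 (SE 0.15), -0.36 (SE 0.15) and 0.14 (SE 0.25). Of 6 PIAS proteins and phosphatases 3 were higher, 1 was lower and 2 did not pass (median 0.30). PTPN2, a phosphatase of JAK1 and STAT proteins, had 147 to 164 CPM in naive libraries and 61.9 and 72.1 CPM in primed libraries, with a log2 fold change of 1.22 (SE 0.11). PTPN6 stood at 0.46 (SE 0.15) and PIAS2 at 0.39 (SE 0.12), both higher, whereas PIAS3, an inhibitor of STAT3, fell by 0.68 (SE 0.14).

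The 4 genes grouped here as adaptors, whose proteins link gp130 to the MAPK route but are not all adaptors in the strict sense, all passed. Of them 2 were higher and 2 lower (median log2 fold change 0.05). Of all genes tested 53.1% passed. GAB1 had 68.0 to 89.9 CPM in naive libraries and 24.9 and 25.5 CPM in primed libraries, with a log2 fold change of 1.64 (SE 0.14), and GRB2 rose by 0.44 (SE 0.10). PTPN11 fell by 0.44 (SE 0.10) and SOS1 fell by 0.34 (SE 0.13, adjusted p = 0.0473 by edgeR's quasi-likelihood test).

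Of 12 genes known as STAT3 targets in stem cells and other cells, 9 were higher and 3 lower in naive libraries (median log2 fold change 1.54). The shares over all genes tested were 26% higher and 27% lower, with a median of 0.11. KLF4, a pluripotency factor, had 257 to 312 CPM in naive libraries and 1.01 and 0.858 CPM in primed libraries, with a log2 fold change of 8.26 (SE 0.17). KLF5, a relative of it, stood at 6.85 (SE 0.19). BCL3, a partner of NF-kappa-B, stood at 4.79 (SE 0.23) and TFCP2L1, which carries the LIF signal in mouse embryonic stem cells, at 4.63 (SE 0.15). The 3 that were lower, GBX2, MYC and SALL4, named after their values were seen, fell by 2.33 (SE 0.20), 2.83 (SE 0.35) and 0.66 (SE 0.12) on the log2 scale. KLF4 and TFCP2L1 are also naive markers, and the list was made with earlier results of these data known, so its count is not independent evidence of a direction.

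**Figure D5:**
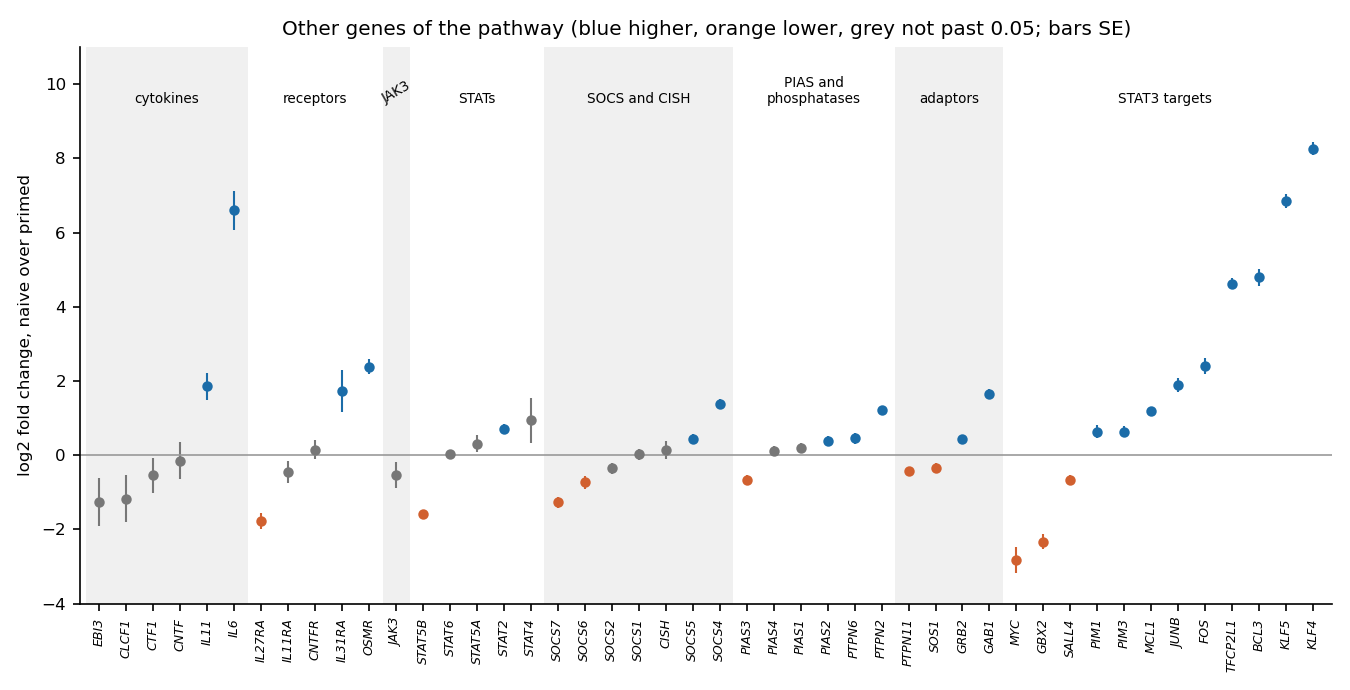
Log2 fold change, naive over primed, with SE bars for 46 of the 48 tested genes outside the 9, grouped by role and sorted within each role. Blue points were higher, orange points lower and grey points did not pass an adjusted p of 0.05. The targets of STAT3 ran from -2.83 for MYC to 8.26 for KLF4, and every other role but the adaptors held genes that did not pass.

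The genes whose profile over the 6 libraries was most like each of the 9 were found by the root-mean-square difference of log2 CPM, each profile centred on its own mean. These are descriptions over 6 libraries that mostly share the step between the states. LIFR was most like APPBP2, with a difference of 0.0478, and then EHMT2 and STMN3. IL6ST was most like ZNF296, with 0.0556, and then METTL21A. IL6R was most like KLF9, with 0.0954, then a gene listed under a clone name, and SLC25A16. STAT3 was most like MARK3, with 0.0197, then ARIH2 and IBTK, and JAK1 was most like GUF1, with 0.0214, then TMEM115 and ARHGEF1. TYK2 was most like KLF11, with 0.0318, then NPIPB13 and PSMG3, and JAK2 was most like FAM66D, with 0.0275, then ABHD14A-ACY1. LIF was most like ZNF432, with 0.0485, then RAB3IL1 and RGPD1, and SOCS3 was most like NPIPB5, with 0.0636, then SNAI1 and NPIPB4. FAM66D, RGPD1 and the NPIPB genes belong to multicopy families, whose counts are uncertain.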

How the data were processed

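Polyadenylated RNA of 6 libraries was sequenced. The authors deposited unnormalized whole counts for each Ensembl gene identifier. They trimmed reads with cutadapt 1.15 (Trim Galore 0.4.4), mapped them with Bowtie2 2.2.5 to the cDNA and noncoding RNA of Ensembl GRCh38 release 100, and kept alignments whose mapping quality was 1 or more. How this filter treats reads shared by transcripts or paralogs was not tested. Another 23 columns, of other studies, were not used here. Here 26 spike-in rows were left out, and the 61196 identifiers were summed by gene name to 48183 names, of which 6932 had more than 1 identifier.

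The 4 naive and 2 primed libraries were compared by the quasi-likelihood test of edgeR 4.0.16 (R 4.3.3), after TMM scaling and its filter on low counts by state, with no covariates. P-values were adjusted by Benjamini-Hochberg over 26497 genes, with a threshold of 0.05. The common dispersion was 0.0563. CPM are TMM-scaled (factors 0.936 to 1.06). State by line was tested as an interaction in the same way. Folds over a parental library used a prior count of 0.5. Positions and lengths came from GENCODE 44. The naive against primed comparison was tested on simulated data, in which far fewer genes changed than passed the test here. Alternatives were other scalings, DESeq2 1.42.0, limma-voom (limma 3.58.1), other count filters, identifiers kept apart, a block for the parental line, summed AICAR libraries, and leaving out each library. Python 3.11.15 served for the rest.

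All 9 genes are named. Of the other pathway genes, the text names up to 4 per role, those with the largest change that passed the test and averaged 5 CPM or more, plus 12 chosen by name, and for likeness the 3 nearest genes. The members and lists were chosen with earlier results of these data known. Some genes that this rule names are not reported here, and the counts by role include them.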

Additional observations from a re-analysis of the deposited data

Results flagged for a closer look

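Among 46 genes of the members and the pathway list with a naive mean of at least 5 CPM, 3 had 1 naive library far from the others, measured as its gap to the nearest library over the range of the 4 (above Dixon's 95% critical value). PIAS1 had 38.3 CPM in AICAR 1 against 32.5 to 33.2 CPM in the other naive libraries. PIAS2 had 49.9 CPM in CA-p38 against 45.4 to 45.7 CPM in the others. TFCP2L1 had 103 CPM in VPA against 123 to 126 CPM in the others. Chance alone flags some groups at that level, about 1 in 20, and none of the 9 receptor, JAK, STAT and SOCS members was flagged.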

How the results depend on the processing

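Over 15 alternatives the count of the 9 genes lower in naive cells was 1 throughout, and that of genes higher was 6 in all but one, falling to 5 without primed replicate 1 (primed EOS). LIF, LIFR, IL6R, IL6ST, TYK2 and SOCS3 kept their direction and their call in every alternative. STAT3 ranged from 0.30 to 0.43 on the log2 scale when 1 library was left out, and without primed EOS, at 0.31, its adjusted p of 0.0946 (edgeR) was past the threshold no longer. Its adjusted p ranged from 0.00166 to 0.0946 over the alternatives. JAK1 ranged from -0.33 to -0.16 (adjusted p 0.0530 to 0.365) and never passed. JAK2 ranged from -0.051 to 0.13 when 1 library was left out, and its direction reversed only without CA-p38 (-0.051, adjusted p 0.860). The cause was not tested. The median of all genes was 0.21 with library totals and 0.11 with TMM. Matching the libraries by parental line, with the line as a block, changed no call among the 9 genes. Each primed line and 2 of the induction methods had 1 library, which limits what can be said of a single method.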
